A study of Solanum lycopersicum with 18 samples.

Results

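The late response of tomato (Solanum lycopersicum) callus to the snapdragon regulators Rosea1 and Delila was described from callus taken 24 h after dexamethasone (DEX), set against uninduced callus. Callus is unorganised tissue grown in culture, and DEX is a synthetic glucocorticoid that switches on the transgenes in this system. The comparison takes 6 of the 18 libraries of the series, 3 of callus at 24 h after 10 mg/L DEX and 3 of callus that was not induced, chosen by the group labels. The uninduced group belongs to the same inducible system, and a group given DEX but lacking the transgenes is not among the labels. What DEX or handling did and what the regulators did cannot be told apart. The labels do not say when the uninduced callus was taken, whether the callus is of 1 transgenic line, or whether replicates are separate cultures. Callus at 3 h and roots at 24 h, each against the uninduced samples of their own tissue, are used below as points of comparison.

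The values are the authors' deposited fold changes for 5295 features, 5293 tomato gene models and 2 transgenes. By its name, the table keeps features that passed the authors' FDR limit (false discovery rate) of 0.05 with a change of 2-fold in any comparison. Single libraries' values were not analysed here. Their depth and the spread between replicates are therefore unknown, and no difference below carries a test over samples. Higher and lower mean a fold of at least 2 in the comparison named, with uninduced tissue read as the reference because the transgenes and all 16 anthocyanin identifiers checked stood above 1. That reading is no independent check of the labels, and whether the tissue is callus could not be checked from fold changes. Counts within a gene list cover only its members in this selected table, not the whole family in the genome. In bulk tissue, fewer cells of a type and less RNA per cell cannot be told apart.

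In plants, MYB and bHLH proteins act with a WD-repeat partner to switch on the genes of anthocyanin synthesis. The pathway draws phenylalanine from the shikimate route through phenylalanine ammonia-lyase, and its products are stored in the vacuole. Callus in culture proliferates, so its transcripts normally include those of DNA replication, mitosis and the building of new cell walls. The sections below follow the late callus state from these growth functions to phenolic metabolism, regulators, hormones, defence and transport.

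At 24 h, 955 features were higher, 18.0% of the table, and 1138 were lower, 21.5%. The other 3202 features lay under 2-fold, and the median log2 fold of the whole column was 0. Folds were of similar size in both directions, with a median of 3.09-fold among higher and 3.01-fold among lower features. The extremes were not alike: 18 features stood at least 100-fold higher and 3 at least 100-fold lower. Of those 18, 11 were anthocyanin identifiers. The transgenes lay below that limit, Rosea at 62.1-fold and Delila at 39.2-fold higher per the authors' deposited table. Above 10-fold there were 96 higher features, 79 of them outside the anthocyanin identifiers and transgenes, and 86 lower ones. A total of 466 features are described only as unknown proteins, of which 90 were higher and 124 lower.

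In the gene lists of growth, more members were lower than higher, and over all 4 lists more members lay under 2-fold than were called. DNA replication had 14 of 32 members lower and 0 higher, with a median log2 fold of -0.94. Core and linker histones, the proteins that package new DNA, had 14 of 29 lower and 0 higher, with a median of -0.98. Cyclins and cell cycle kinases had 16 of 40 lower and 3 higher, and kinesins and other microtubule proteins 23 of 60 lower and 1 higher. Over all features, 21.5% were lower, so each of these lists held a larger share of lower members than the table. Their folds were small: at a fold of at least 4, cyclins and cell cycle kinases had 2 higher and 1 lower, microtubule proteins 1 in each direction and histones 0 in either.

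Within the cyclins, the types differed in their counts. B-type cyclins, which drive entry into mitosis, were lower in 6 of 6 members, with log2 folds between -1.63 and -1.13. A-type cyclins, which act in S phase and toward mitosis, had 4 of 6 lower and 1 higher. D-type cyclins, which respond to growth signals in G1, had 1 of 6 lower and 0 higher, with a median log2 fold of -0.31. None of the 7 cell division protein kinases reached 2-fold in either direction, and their log2 folds lay between -0.80 and 0.86. The lowest cyclin was the A-like Solyc12g088520, 7.39-fold lower per the authors' deposited table, against 2.05-fold lower at 3 h. The B-like cyclin Solyc10g078330 stood at 3.09-fold lower and cyclin B1 Solyc01g009040 at 2.75-fold lower per the authors' deposited table, against 1.76-fold and 1.11-fold lower at 3 h.

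Of the 3 higher members of the list, 2 are described as cyclins and 1 as a kinase inhibitor. With marked features and those on a fold step left out, both explained below, 1 higher member was left, the inhibitor. Cyclin A Solyc04g008070 was 7.35-fold higher per the authors' deposited table at 24 h, 5.23-fold at 3 h and 10.7-fold in roots at 24 h. A feature described only as cyclin, Solyc07g052610, was listed at 126-fold higher at 24 h per the authors' deposited table, with a fold of exactly 1 at 3 h and 51.8-fold higher in roots at 24 h. A cyclin-dependent kinase inhibitor, Solyc12g098310, of the proteins that hold cell division back, stood at 2.19-fold higher per the authors' deposited table.

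Histone types were also unequal. Histone H3 had 6 of 7 members lower and histone H4 6 of 9, with median log2 folds of -1.16 and -1.12. Histone H2A had 1 of 5 and histone H2B 1 of 7 lower, with medians of -0.64 and -0.61, so most of their members lay below 0 without reaching 2-fold. The lowest members of the list were H4 Solyc05g054610 at 3.13-fold, H3 Solyc01g080600 at 2.76-fold and H2A Solyc11g073260 at 2.65-fold lower per the authors' deposited table. The whole histone list had a median log2 fold of -0.98 at 24 h and -0.004 at 3 h in callus. In roots at 24 h the median was -1.09.

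Replication licensing factors, which load the DNA helicase before S phase, had 5 of 11 members lower, and DNA polymerases and primases 4 of 10. All 3 ribonucleotide reductase features, of the enzyme that makes deoxynucleotides, were lower, with log2 folds from -1.28 to -1.01. The lowest of the list was Solyc03g111680, known here only by its description as a DNA polymerase III subunit, at 5.74-fold lower per the authors' deposited table. Subunit 6 of the origin recognition complex, Solyc05g007450, stood at 4.51-fold lower per the authors' deposited table. Kinesins, the motors of the spindle and of transport along microtubules, had 16 of 35 lower and 0 higher, and tubulins 1 of 6 lower. The lowest kinesin, Solyc12g011290, was 3.59-fold lower per the authors' deposited table. A katanin subunit, Solyc08g081740, of the enzyme that severs microtubules, was the only higher member of the microtubule list, at 4.15-fold per the authors' deposited table.

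**Figure D1:**
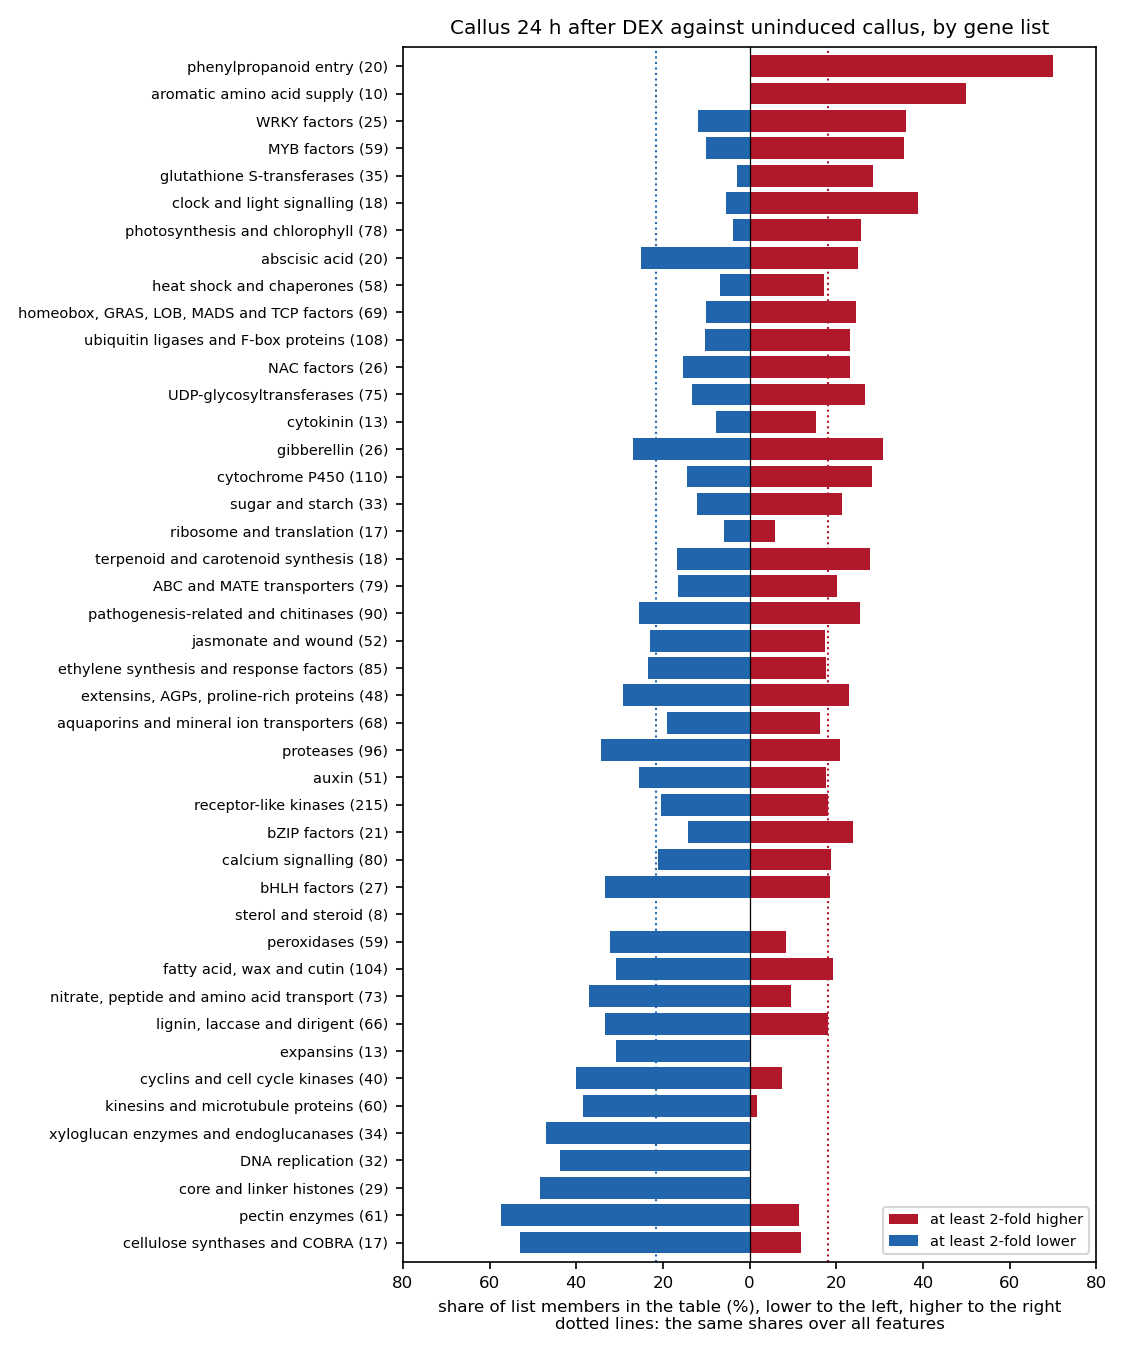
Share of each gene list's members in the table that were at least 2-fold higher (red, to the right) or lower (blue, to the left) in callus at 24 h after DEX, against uninduced callus; the number of members stands in brackets and dotted lines mark 18.0% and 21.5%, the shares over all features. Lists are ordered by median log2 fold, with phenylpropanoid entry (14 of 20 higher) at the top and cellulose synthases and COBRA (9 of 17 lower) at the bottom.

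Cell wall lists lay lower as well. Pectin enzymes had 35 of 61 members lower and 7 higher, with a median log2 fold of -1.14. Among them polygalacturonases, which cut the pectin backbone, had 12 of 18 lower with 1 described inhibitor of them counted in, pectate lyases 6 of 9 and pectinesterases 15 of 31. A pectate lyase, Solyc05g014000, was the lowest feature of the whole column at 211-fold lower per the authors' deposited table, against 2.72-fold lower at 3 h and 1.33-fold lower in roots at 24 h. Polygalacturonase 7, Solyc12g019180, stood at 38.0-fold lower at 24 h and 7.71-fold lower at 3 h per the authors' deposited table. The pectinesterase Solyc01g091050 had opposite directions in the 2 tissues at 24 h. It stood at 26.8-fold lower in callus and 12.2-fold higher in roots per the authors' deposited table. Its fold in roots at 3 h was exactly 1, and the marks described below were set from callus folds only. Another pectinesterase, Solyc01g098940, was 32.9-fold higher in callus and 24.2-fold higher in roots at 24 h per the authors' deposited table.

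Cellulose synthases and COBRA proteins, which lay down cellulose, had 9 of 17 members lower and 2 higher, with the lowest median of the 44 lists, -1.33. Without its 1 marked member, of the kind described below, the median was -0.78. The cellulose synthase Solyc02g072240 stood at 15.3-fold lower at 24 h and 1.60-fold lower at 3 h per the authors' deposited table. Another, Solyc08g082670, was 2.21-fold higher at 24 h and 5.23-fold lower at 3 h per the authors' deposited table. Endoglucanases were lower in 9 of 13 members and higher in 0, and xyloglucan endotransglucosylases, which cut and rejoin wall xyloglucan, in 7 of 21 and 0. Endoglucanase 1 Solyc11g040340 stood at 21.7-fold lower at 24 h and 3.73-fold lower at 3 h per the authors' deposited table. Expansins, which loosen walls as cells enlarge, had 4 of 13 lower and 0 higher. Their lowest member, Solyc03g093390, was 7.71-fold lower at 24 h but 54.1-fold lower at 3 h per the authors' deposited table.

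Structural wall proteins were mixed, with 14 of 48 lower and 11 higher. Arabinogalactan proteins, including the fasciclin-like ones, had 6 of 13 lower and 2 higher. Fasciclin-like protein 10, Solyc07g065540, stood at 44.3-fold lower per the authors' deposited table, while fasciclin-like protein 5, Solyc06g075220, was 7.33-fold higher there. Extensins had 4 of 17 higher and 3 lower in callus, and 0 higher and 16 lower in roots at 24 h, where 11.7% of all features were higher and 21.9% lower. Of the 17 extensin features, 10 carried an exact or repeated fold in callus, a mark described below. Extensin Ext1 Solyc12g100110 was such a feature, at 4.10-fold higher in callus and 32.9-fold lower in roots at 24 h per the authors' deposited table.

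**Figure D2:**
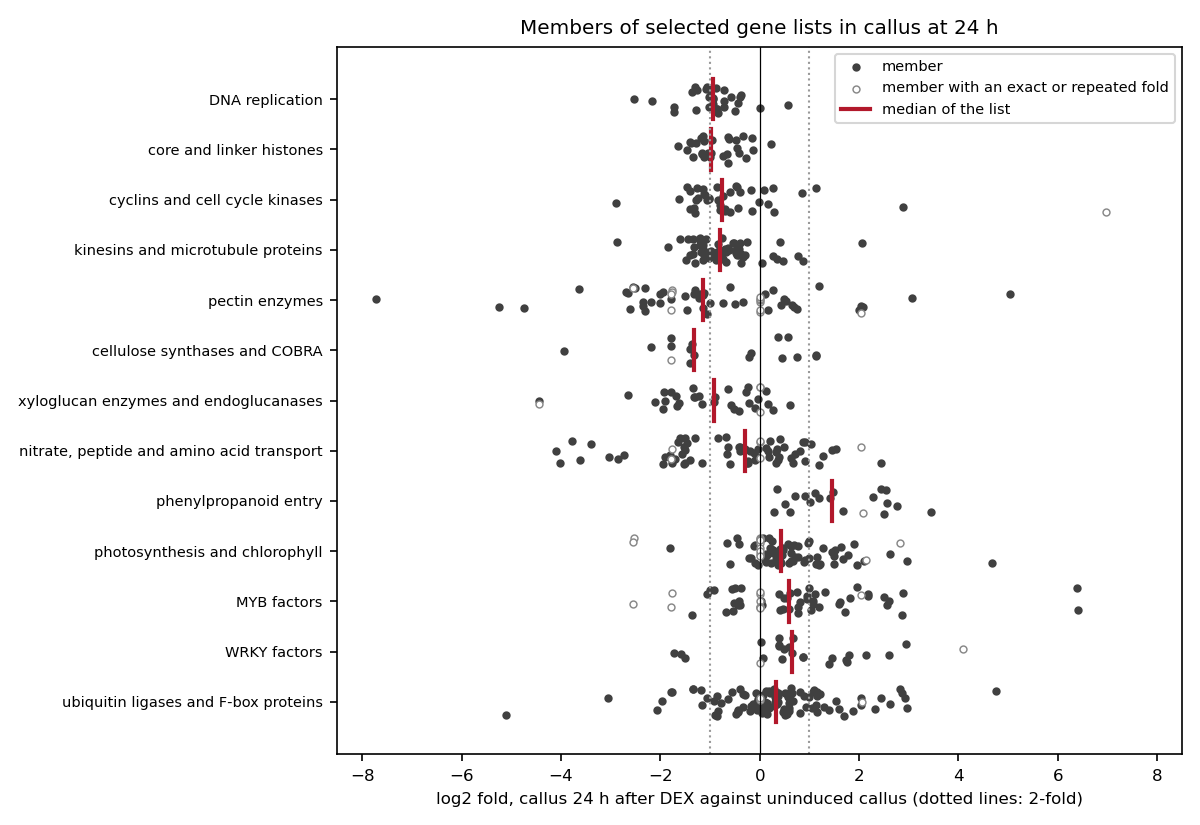
Log2 fold of every member of 13 gene lists in callus at 24 h after DEX against uninduced callus; each point is 1 feature, open points have an exact or repeated fold, red bars are list medians and dotted lines mark 2-fold. Histone members lie between -1.65 and 0.23, while pectin enzymes reach from -7.72 to 5.04.

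Lignin, laccase, dirigent and chlorogenic acid genes had 22 of 66 members lower and 12 higher, and 14 lower and 9 higher without marked features and those on a fold step. Laccases, which oxidise monolignols in the wall, were lower in 12 of 25 and higher in 0, and among the 15 unmarked ones in 8 and 0. Laccase-2 Solyc03g063150 stood at 9.19-fold lower at 24 h and 1.93-fold lower at 3 h per the authors' deposited table. The highest members of this list by description, Solyc09g082660 and Solyc12g088170, are the anthocyanin methyltransferase and acyltransferase. Apart from them, a cinnamoyl-CoA reductase-like protein, Solyc02g086770, of the lignin branch, stood at 22.1-fold higher per the authors' deposited table. Class III peroxidases, secreted enzymes that also act in the wall, had 19 of 59 lower and 5 higher. The peroxidase Solyc01g006300 was 18.5-fold lower at 24 h and 3.52-fold lower at 3 h per the authors' deposited table, and peroxidase 1 Solyc01g101050 was 20.2-fold higher at 24 h and 26.5-fold higher at 3 h.

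Phenylalanine supply and phenylpropanoid entry stood out on the higher side. Phenylalanine ammonia-lyases, which open the phenylpropanoid route, were higher in 12 of 12 members, with log2 folds between 1.10 and 3.44. At 3 h in callus, where 27.8% of all features were higher and 23.4% lower, 7 of the 12 were higher, and in roots at 24 h 6 of the 12. The median log2 fold of the 12 was 2.36 at 24 h and 2.40 at 3 h in callus, and 0.98 in roots at 24 h. The highest, Solyc05g056170, was 10.9-fold higher at 24 h and 5.09-fold at 3 h per the authors' deposited table, and Solyc03g042560 was 5.94-fold and 5.44-fold higher. The 4-coumarate CoA ligases, a later step of entry, had 2 of 8 higher and 0 lower at 24 h, against 5 higher at 3 h. Of 10 features of aromatic amino acid synthesis 5 were higher and 0 lower. The shikimate pathway enzyme 3-phosphoshikimate 1-carboxyvinyltransferase, Solyc05g050980, stood at 6.60-fold higher at 24 h and 1.62-fold at 3 h per the authors' deposited table, and it was 1.49-fold lower in roots at 24 h. Shikimate kinase Solyc04g051860 was 2.46-fold higher at 24 h and 4.35-fold at 3 h per the authors' deposited table.

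All 16 anthocyanin identifiers were higher, and 1 further glycosyltransferase not among them, Solyc09g059170, described as an anthocyanidin 3-O-glucosyltransferase, stood at 581.7-fold higher per the authors' deposited table. UDP-glycosyltransferases as a list, enzymes that attach sugars to small molecules, had 20 of 75 higher and 10 lower. Glutathione S-transferases, which conjugate or carry small molecules, had 10 of 35 higher and 1 lower at 24 h, against 21 higher and 3 lower at 3 h. Across the whole table the higher share was 18.0% at 24 h and 27.8% at 3 h. Outside the anthocyanin-carrying enzyme, the highest was Solyc10g084960 at 6.52-fold per the authors' deposited table. Cytochrome P450 enzymes, oxygenases of many pathways, had 31 of 110 higher and 16 lower. Outside the anthocyanin identifiers they reached from Solyc04g007940 at 428-fold higher to Solyc04g071150 at 15.1-fold lower per the authors' deposited table.

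Among the 15 highest features outside the anthocyanin identifiers, 2 belong to the list of fatty acid, wax and cutin genes. A long-chain fatty acid CoA ligase family protein, Solyc01g079240, stood at 422-fold higher in callus and 17.2-fold in roots at 24 h per the authors' deposited table. CER1 Solyc00g278110, which in Arabidopsis takes part in making wax alkanes, was 252-fold higher in callus at 24 h per the authors' deposited table. The list of fatty acid, wax and cutin genes as a whole had 20 of 104 higher and 32 lower. These are 19.2% and 30.8%, against 18.0% and 21.5% of all features. GDSL esterases, a family that includes cutin-related enzymes, had 11 of 31 lower and 2 higher, and lipid transfer proteins 11 of 27 lower and 6 higher. A caleosin, Solyc01g005400, of the proteins of oil bodies, was 20.4-fold lower at 24 h and 1.34-fold lower at 3 h per the authors' deposited table.

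Other features of that top group came from unrelated families. A pinoresinol-lariciresinol reductase, Solyc06g066170, of lignan synthesis, was 93.1-fold higher in callus at 24 h, 12.6-fold at 3 h and 1.37-fold in roots at 24 h per the authors' deposited table. An exostosin-like protein, Solyc12g062940, stood at 64.8-fold higher at 24 h and 9.54-fold at 3 h per the authors' deposited table. The seed maturation protein LEA 4, Solyc10g078770, was 62.3-fold higher in callus and 3.40-fold lower in roots at 24 h per the authors' deposited table. Defensin Solyc07g007750, a small antimicrobial protein, was listed at 1362-fold higher at 24 h per the authors' deposited table; its fold was exactly 1 at 3 h and 6.02-fold higher in roots at 24 h.

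Several of the lowest features were under 3-fold lower at 3 h, while others were already further down at that time. A protein described as the efflux protein corC, Solyc03g007570, stood at 104-fold lower at 24 h and 2.98-fold lower at 3 h per the authors' deposited table. An alpha-hydroxynitrile lyase, Solyc07g054880, was 48.3-fold and 2.18-fold lower at these times, and the F-box protein Solyc03g093780 was 34.3-fold and 2.51-fold lower per the authors' deposited table. The cation/H+ antiporter Solyc02g071070 stood at 32.5-fold lower at 24 h and 2.38-fold lower at 3 h per the authors' deposited table. Major latex-like protein Solyc04g007750 was 65.6-fold lower at 24 h and 12.6-fold at 3 h per the authors' deposited table. Its family had 5 of 12 members lower and 0 higher. A laccase, Solyc06g050530, a methyltransferase, Solyc09g091550, and a geranylgeranyl pyrophosphate synthase, Solyc07g064660, carried repeated folds. In that order they stood at 31.6-fold, 51.9-fold and 68.4-fold lower at both 3 h and 24 h per the authors' deposited table. Both times are set against the same uninduced libraries, so their folds are not independent.

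**Figure D3:**
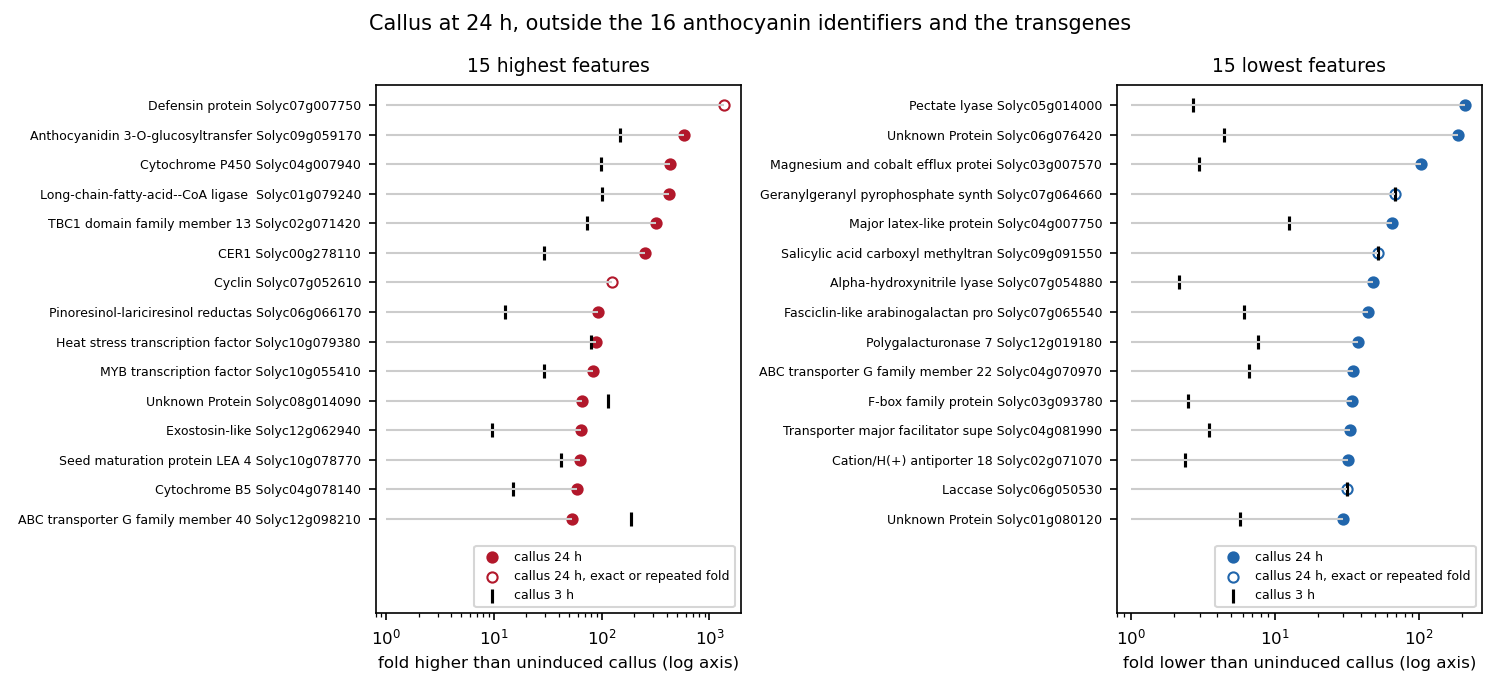
Fold of the 15 highest (left, red) and 15 lowest (right, blue) features in callus at 24 h outside the 16 anthocyanin identifiers and the transgenes, on log axes; open circles carry an exact or repeated fold and black ticks are the folds at 3 h where these have the same direction. The pectate lyase at 211-fold lower and the defensin at 1362-fold higher lead the panels.

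Of 78 photosynthesis and chlorophyll genes, which mark green tissue, 20 were higher and 3 lower, with a median log2 fold of 0.42 at 24 h and -0.58 at 3 h. Photosystem I and II subunits had 8 of 26 higher and 1 lower at 24 h, against 0 higher and 15 lower at 3 h. The 1 lower subunit at 24 h, Solyc06g084050, carried a repeated fold. Over all features in callus, 18.0% were higher and 21.5% lower at 24 h, and 27.8% and 23.4% at 3 h. In roots at 24 h the shares were 11.7% and 21.9%. Chlorophyll a/b binding proteins, the light-harvesting antenna, had 6 of 24 higher in callus and 23 of 24 higher in roots at 24 h, and 2 of 24 were lower in callus. Their median log2 fold was 0.33 in callus and 2.30 in roots at 24 h. The binding protein Solyc03g005770 stood at 25.5-fold higher at 24 h and 22.1-fold at 3 h in callus per the authors' deposited table, unlike most of its family at 3 h. An oxygen evolving complex protein of photosystem II, Solyc10g054420, was 7.83-fold higher at 24 h and 1.52-fold at 3 h per the authors' deposited table. Features of clock and light signalling had 7 of 18 higher and 1 lower, led by CONSTANS-LIKE 2 Solyc02g084420 at 34.9-fold per the authors' deposited table. Of 3 root cap features, markers of root tissue, 2 were lower and 0 higher in callus at 24 h, and of 2 phloem lectins, the members of the xylem and phloem list, 1 was higher and 0 lower. The higher one had a fold of exactly 1 at 3 h. The Casparian strip words matched 0 features.

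Transcription factor families differed in their balance. Of 59 MYB factors, 21 were higher and 6 lower, and 3 of the 6 lower ones carried a repeated fold. Among MYB factors outside the anthocyanin identifiers, the highest was Solyc10g055410 at 83.2-fold higher at 24 h, 29.1-fold at 3 h and 2.13-fold in roots at 24 h per the authors' deposited table. WRKY factors, many of them regulators of stress responses, had 9 of 25 higher and 3 lower at 24 h, against 16 and 2 at 3 h. The higher share over all features was also smaller at 24 h, at 18.0% against 27.8% at 3 h. WRKY-c Solyc02g088340 was 7.71-fold higher at 24 h and 3.87-fold at 3 h per the authors' deposited table, whereas WRKY 27 Solyc03g007380 was 6.11-fold higher at 24 h and 20.4-fold at 3 h. Homeobox factors, regulators of development, had 9 of 28 higher and 0 lower, with the leucine zipper protein Solyc04g077220 at 7.23-fold per the authors' deposited table. LOB factors, which act in organ boundaries and lateral roots, had 2 of 12 higher and 4 lower. Of these, Solyc03g063140 stood at 12.4-fold lower in callus and 3.28-fold higher in roots at 24 h per the authors' deposited table. The fold of Solyc03g063140 in roots at 3 h was exactly 1.

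Among 27 bHLH factors 5 were higher and 9 lower, and among 26 NAC factors 6 were higher and 4 lower. The bHLH30 factor Solyc04g006990 stood at 5.88-fold lower at 24 h and 1.12-fold lower at 3 h per the authors' deposited table. Heat stress factors, which drive chaperone genes, had 5 of 9 higher and 0 lower, led by Solyc10g079380 at 88.2-fold per the authors' deposited table. The heat shock proteins themselves had 3 of 30 higher and 3 lower at 24 h, against 5 higher and 14 lower at 3 h. Over all features 18.0% were higher and 21.5% lower at 24 h, and 27.8% and 23.4% at 3 h. Among the 26 heat shock proteins without an exact or repeated fold, 3 were higher and 1 lower at 24 h. Ubiquitin ligases and F-box proteins, which mark proteins for breakdown, had 25 of 108 higher and 11 lower. Their highest member was the F-box protein Solyc08g005330 at 27.0-fold higher at 24 h and 7.67-fold at 3 h per the authors' deposited table.

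Hormone genes showed no common direction. In the gibberellin list 8 of 26 members were higher and 7 lower. The gibberellin 3-beta-hydroxylase Solyc06g066820, which makes active gibberellin, stood at 16.8-fold higher and the gibberellin 20-oxidase Solyc01g093980, the step before it, at 7.92-fold higher per the authors' deposited table. A feature described as gibberellin receptor GID1L2, Solyc01g108570, was 9.56-fold higher at 24 h and 1.52-fold at 3 h per the authors' deposited table. Gibberellin-regulated proteins, small secreted peptides, had 4 of 10 lower and 2 higher. Auxin efflux carriers and transporters, which move auxin between cells, had 5 of 10 lower and 1 higher. The whole auxin list had 13 of 51 lower and 9 higher, 25.5% and 17.6%, near the 21.5% and 18.0% of all features. The efflux carrier Solyc06g059730 stood at 6.62-fold lower at 24 h and 27.7-fold lower at 3 h, and the transporter Solyc10g076790 at 5.20-fold and 1.21-fold lower per the authors' deposited table. A GH3 protein, Solyc10g011660, of the family that conjugates auxin and other acids, was 4.27-fold higher at 24 h and 1.01-fold at 3 h per the authors' deposited table.

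Of 46 ethylene response factors 9 were higher and 8 lower at 24 h, against 23 higher and 7 lower at 3 h. Among all features 18.0% were higher at 24 h and 27.8% at 3 h. Response factor 13 Solyc06g066540 stood at 18.2-fold higher at 24 h and 42.3-fold at 3 h per the authors' deposited table, and response factor 12 Solyc01g067540 at 21.5-fold and 18.1-fold lower. Features described as synthases or oxidases of aminocyclopropane carboxylate, the precursor of ethylene, had 11 of 34 lower and 5 higher. The abscisic acid list had 5 of 20 higher and 5 lower, and the cytokinin list 2 of 13 higher and 1 lower. Jasmonate and wound genes had 9 of 52 higher and 12 lower, 17.3% and 23.1%, near the 18.0% and 21.5% of all features. The Kunitz trypsin inhibitor Solyc03g098670 stood at 7.57-fold higher and another, Solyc06g072210, at 12.97-fold lower per the authors' deposited table. The carotenoid cleavage dioxygenase 8 feature Solyc08g066650, an enzyme of strigolactone synthesis, was 8.42-fold lower at 24 h and 7.31-fold higher at 3 h per the authors' deposited table.

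Receptor-like kinases, with 39 of 215 members higher and 44 lower, had 18.1% and 20.5%, close to the shares of the table. Pathogenesis-related proteins and chitinases had 23 of 90 higher and 23 lower, 25.6% each. The beta-1,3-glucanase Solyc10g079860, an enzyme of callose and fungal wall glucans, stood at 10.0-fold higher at 24 h and 1.30-fold at 3 h per the authors' deposited table. Germin-like protein 18 Solyc11g006980 was 22.6-fold lower at 24 h and 3.25-fold at 3 h per the authors' deposited table. A receptor kinase, Solyc02g079710, was 13.8-fold higher in callus at 24 h and under 2-fold in callus at 3 h and roots at 24 h, at 1.61-fold and 1.62-fold per the authors' deposited table. Calcium signalling genes had 15 of 80 higher and 17 lower at 24 h, 18.75% and 21.25%, also close to the shares of the table. At 3 h 33 were higher and 14 lower, where 27.8% of all features were higher and 23.4% lower. Without marked features and those on a fold step the 24 h balance turned, to 15 higher and 14 lower.

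Proteases had 33 of 96 members lower and 20 higher, 34.4% and 20.8%, against 21.5% and 18.0% of all features. Cathepsins and cysteine proteinases, enzymes of the vacuole and of programmed breakdown, were lower in 5 of 9 and higher in 0. The cathepsin B-like Solyc02g077040 stood at 10.6-fold lower at 24 h and 1.99-fold lower at 3 h per the authors' deposited table. Metacaspase 7 Solyc10g081300 was 12.5-fold lower at 24 h and 2.23-fold higher at 3 h, and metacaspase Solyc01g105320 was 7.34-fold and 5.24-fold higher per the authors' deposited table. Subtilisin-like proteases had 11 of 30 lower and 6 higher.

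Transporters of nitrogen lay on the lower side, with 27 of 73 members lower and 7 higher. These are 37.0% and 9.59%, against 21.5% and 18.0% of all features. Peptide and oligopeptide transporters had 12 of 25 lower and 1 higher, and amino acid transporters and permeases 10 of 27 lower and 2 higher. The nitrate transporters were mixed, with 4 of 13 lower and 3 higher, from Solyc11g042820 at 17.2-fold lower to Solyc06g074990 at 5.41-fold higher per the authors' deposited table. Aquaporins, which let water through membranes, had 5 of 21 lower, 23.8% and near the share of all features, and 1 higher, 4.76%. The higher one, Solyc10g083880, stood at 6.83-fold higher at 24 h and 1.33-fold lower at 3 h per the authors' deposited table. ABC and MATE transporters had 16 of 79 higher and 13 lower, 20.3% and 16.5%, not far from the shares of all features. The G family member 40 Solyc12g098210 stood at 52.6-fold higher at 24 h and 186-fold at 3 h per the authors' deposited table. Sugar and starch genes had 7 of 33 higher and 4 lower, 21.2% and 12.1%. They were led by the inositol oxygenase Solyc11g006570 at 22.3-fold higher per the authors' deposited table. The few ribosome and translation features, 17 in all, had 1 higher and 1 lower, and the 8 of sterol metabolism had 0 in either direction.

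**Figure D4:**
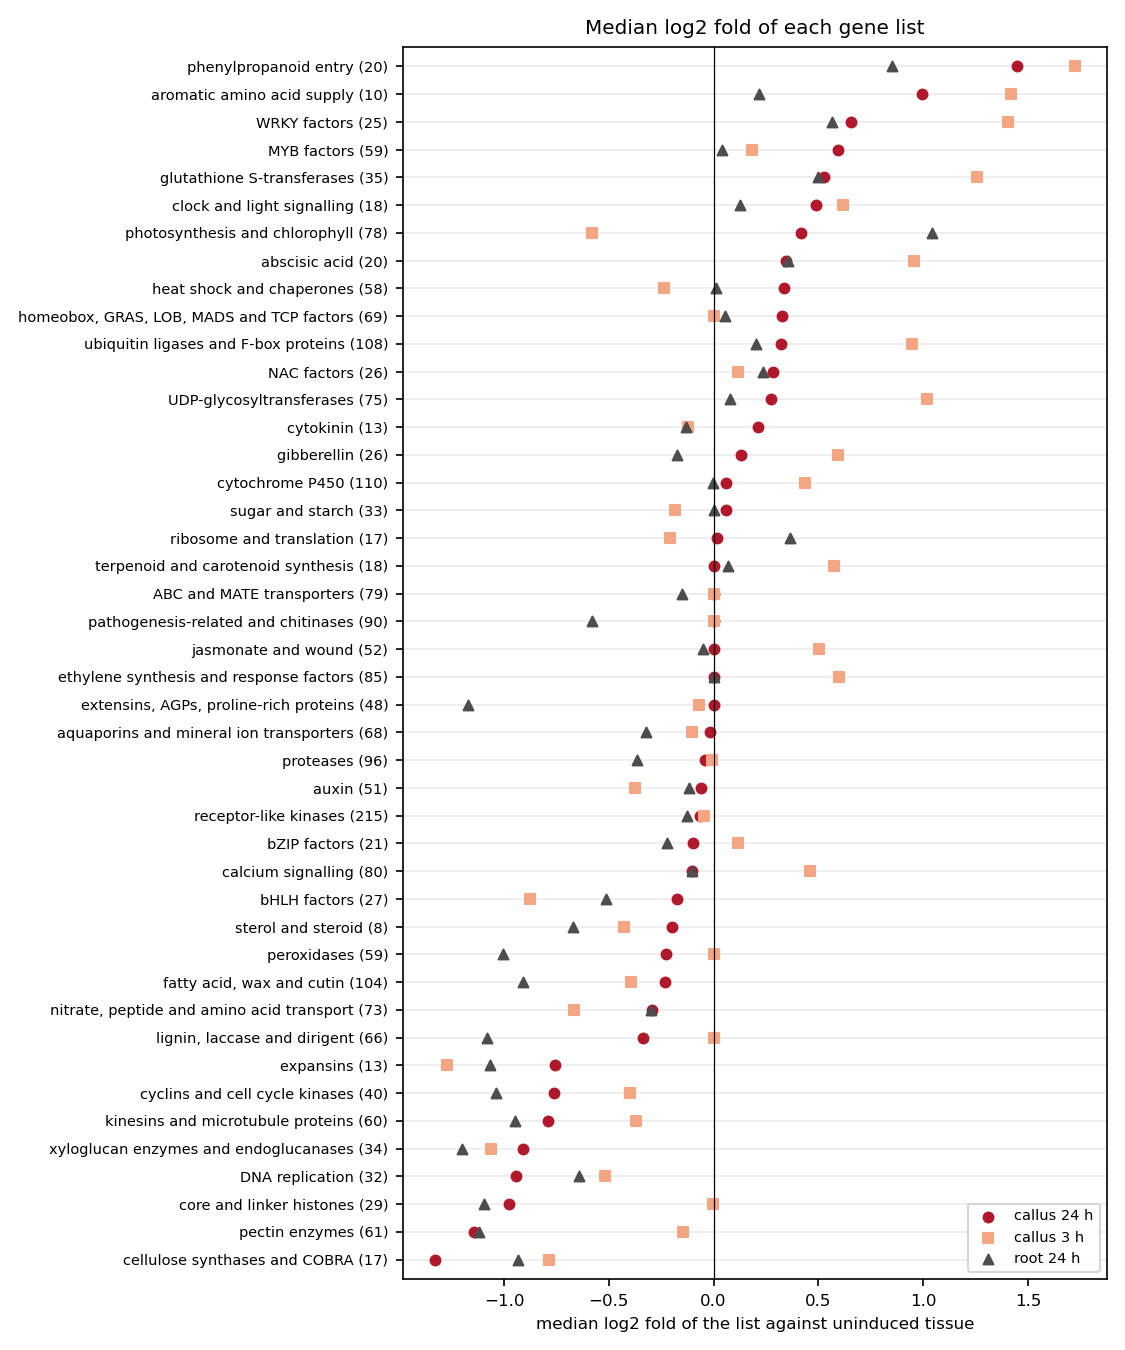
Median log2 fold of each gene list in callus at 24 h (red circles), callus at 3 h (orange squares) and roots at 24 h (grey triangles), each against uninduced samples of its own tissue, with the number of members in brackets. The photosynthesis list has medians of 0.42 in callus at 24 h, -0.58 in callus at 3 h and 1.04 in the roots, and the histone list -0.98, -0.004 and -1.09.

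Callus and roots at 24 h were compared by their own folds, since they share no libraries. Of the features higher in callus, 345 were also higher in roots, which is 36.1% of the callus list and 55.7% of the root list. Of the lower ones 562 were shared, 49.4% of the callus and 48.4% of the root list. Opposite directions were held by 62 features higher in callus and lower in roots, and by 39 lower in callus and higher in roots. Over all features, 11.7% were higher and 21.9% lower in roots at 24 h, and 18.0% and 21.5% in callus. The difference between the tissues was not tested.

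A part of the column carries marks that bear on how a fold can be read. A fold of exactly 1 at 24 h was listed for 348 features, of which 300 also had exactly 1 at 3 h. In roots at 3 h or 24 h, 344 of the 348 were at least 2-fold apart. For the 300 this was fixed by the selection, since every feature was kept for a 2-fold change in some comparison. The same fold other than 1 at both callus times was listed for 123 features, and 122 of these were at least 2-fold lower. A further 67 had exactly 1 at 3 h and another fold at 24 h, of which 65 were at least 2-fold higher at 24 h. Together 538 features are marked, with 65 among the higher and 122 among the lower ones. Without them 890 of 4757 features were higher, 18.7%, and 1016 lower, 21.4%.

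The marked folds were stacked at a few sizes. Of the 65 marked higher features, 34 lay within 2.5% of a fold of 4.13, a step of 3.13 above 1. Windows placed at further multiples of that step, 7.27, 10.4 and 13.5, held 5, 4 and 3. Of the 122 marked lower features, 64 lay within 2.5% of 3.43, a step of 2.43. Windows placed in the same way at 5.86, 8.30 and 10.7 held 24, 8 and 5. Among all features, 114 were lower by a fold in the window at 3.43, against 34 and 25 in windows of the same width just below and above it. The window at 4.13 held 60 higher features, against 27 and 21 beside it. The first step of each direction was placed at the median of marked features, so these totals include features that set it. Later steps were placed at multiples of it, so their even spacing was imposed and not found. The windows at 7.27, 10.4 and 13.5 held 27, 11 and 6 higher features. Beside them lay 14 and 11, 7 and 3, and 0 and 1. Those at 5.86, 8.30 and 10.7 held 42, 22 and 20 lower features, against 13 and 9, 6 and 6, and 4 and 4. Unmarked features numbered 50 in the window at 3.43. In the window at 4.13 they numbered 26, close to the counts of all features beside it. Outside the marked features 155 others lay within such a window and are counted as on a step, 58 higher and 97 lower. Named features on a step, besides the marked Ext1, include cyclin A Solyc04g008070, the feature described as a DNA polymerase III subunit, the katanin subunit and fasciclin-like protein 5. The homeobox protein Solyc04g077220, bHLH30, carotenoid cleavage dioxygenase 8 and the receptor kinase Solyc02g079710 are others. The cathepsin B-like Solyc02g077040 and the metacaspase Solyc01g105320 complete the list. Whether such folds rest on few reads was not tested.

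**Figure D5:**
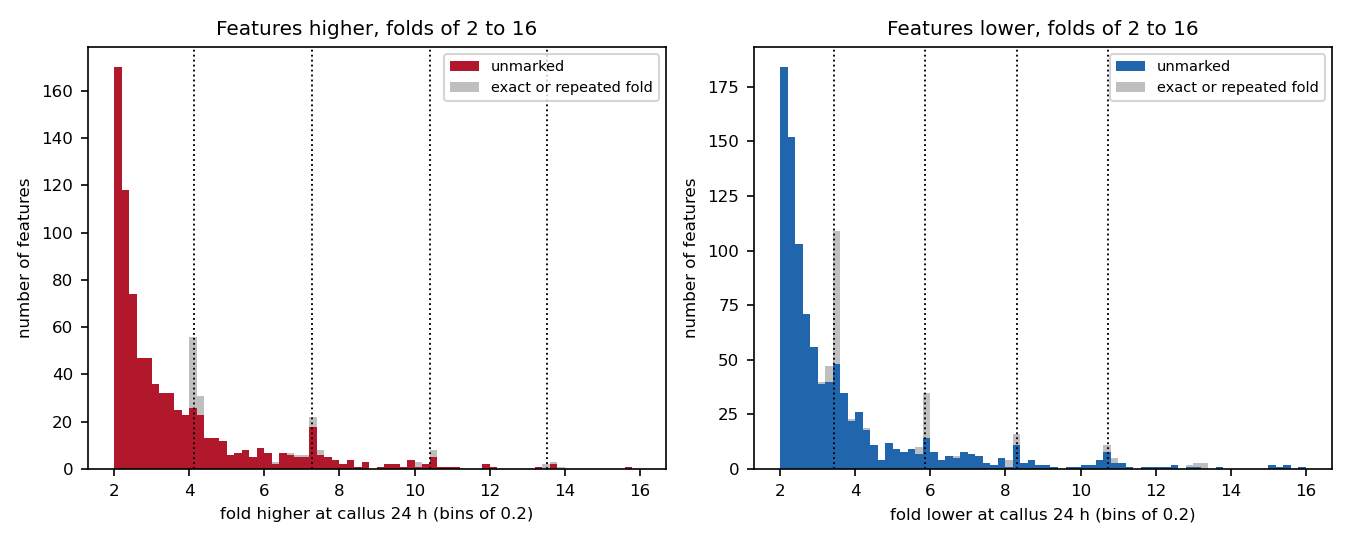
Number of features by fold in callus at 24 h, for higher features (left, red) and lower features (right, blue) with folds of 2 to 16. Grey marks features with an exact or repeated fold, and dotted lines mark the steps, which were placed at even spacing. Peaks stand at folds of 4.13 and 7.27 for higher and at 3.43 and 5.86 for lower features.

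The marks fell unevenly on the lists. The growth lists held almost none, with 0 of 32 replication, 0 of 29 histone and 0 of 60 microtubule features and 1 of 40 cyclin features, so their counts stood nearly unaltered without them. Pectin enzymes kept 30 lower and 6 higher among 49 unmarked members, and phenylpropanoid entry 13 higher and 0 lower among 19. Photosynthesis had 18 higher and 1 lower among 66 unmarked members, and bHLH factors 3 higher and 7 lower among 22. Jasmonate and wound genes changed balance, with 9 higher and 7 lower among 40 unmarked members.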

How the data were processed

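The members are 6 of 18 libraries of polyadenylated RNA, grouped by the labels. Per the submitters' processing notes, CASAVA 1.8.1 was used. The sources used here give no aligner, genome build, counting or normalization. Per the file headers, the authors deposited CLC bio signed fold changes, the same folds as a linear ratio and their log10. Log2 folds were taken from the deposited ratio. The 2 deposited files had a largest difference of 0 in the callus 24 h fold. With no p-values, counts or depths of single libraries analysed here, the planned count model could not be used and intervals could not be given. A call is a fold of 2 or more with no test.

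The 44 gene lists match words in the table's descriptions at word starts, and hold 2315 features, some in several lists. Members, lists and their subgroups were chosen with earlier results of these data known, and wrong matches were removed after descriptions and counts were seen. The text names, outside the anthocyanin identifiers, features among the 15 highest and 15 lowest and the 3 highest and 3 lowest called members of a list. The subgroups, chlorophyll breakdown and the other groups of the closing section, and the fold steps were chosen after values were seen. The RefSeq gene table matched 0 identifiers. Python 3.11.15, numpy 2.4.6, pandas 2.3.3 and matplotlib 3.10.9 were used, and the matching and calls were tested on simulated data.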

Additional observations from a re-analysis of the deposited data

How the results depend on the processing

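The 955 higher and 1138 lower features became 351 and 318 at a fold of at least 4, and 2464 and 2483 with any fold above 1 in size. Among features whose one fold of at least 2 in the 4 comparisons is callus at 24 h, 100 were higher and 113 lower. Without marked features (890 and 1016), without marked features and those on a fold step (832 and 919, chosen after seeing the data) and after centring the column at its median (962 and 1129) the counts stayed within 1.5 times. Of 40 lists with unequal counts, the more frequent direction held for 38 without marked features, for 36 when features on a fold step were also left out, for 40 with centring and for 39 with each feature counted only in its first list. Jasmonate and wound genes (9 higher, 7 lower) turned and aquaporins and ion transporters (11 each) became even without marked features. Leaving out step features as well turned ethylene (15 and 14), jasmonate (9 and 6), calcium signalling (15 and 14) and aquaporins and ion transporters (11 and 9), and the first-list count made calcium signalling even (15 each). It held for 30 at 4-fold, where 3 lists were even and 7 turned: cyclins and cell cycle kinases (2 higher, 1 lower), terpenoid synthesis, NAC and bZIP factors (1 and 2 each), receptor-like kinases (13 and 9), proteases (11 and 9) and aquaporins and ion transporters (4 and 3). Histones then had 0 in either direction. It held for 20 among features at 2-fold in callus at 24 h alone, with 10 even and 10 turned. The cause was not tested. No paired analysis was possible because the files used hold no values per library, and leaving out each replicate was not run for the same reason. Depth is unknown, so the precision of low folds cannot be given.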

Other observations

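Chlorophyll breakdown, a group chosen after its values were seen, split in callus at 24 h, with 2 of 4 features higher and 2 lower. The stay-green protein Solyc04g063240 was 5.73-fold higher at 24 h and 3.46-fold lower at 3 h per the authors' deposited table. Pheophorbide a oxygenase Solyc04g040160, which opens the chlorophyll ring, stood at 4.87-fold higher at 24 h and 3.45-fold lower at 3 h per the authors' deposited table. The 3 h folds of both features lie within the window of the lower fold step at 3.43. Steps were set from the 24 h folds only, and whether these 3 h folds rest on few reads was not tested. Chlorophyllase 2 Solyc12g005300 was 10.3-fold lower at 24 h and 1.60-fold higher at 3 h per the authors' deposited table. Glutamate-gated channel features had 4 of 8 higher and 0 lower in callus at 24 h, against 18.0% and 21.5% of all features. Pentatricopeptide repeat proteins, which act on organelle RNA, had 5 of 22 higher and 1 lower, and Cc-nbs-lrr proteins, of the plant immune receptors, 3 of 26 in each direction.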
